A study of Rattus norvegicus with 20 samples.

Results

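Cortical projection neurons are specified and marked by a small set of transcription factors, and 8 of these were followed here across brain and spinal cord. The 8 listed genes were Tbr1, Neurod6, Neurod2, Cux1, Cux2, Fezf2, Bcl11b and Emx1, and members were taken by gene name. Of them, 7 had a row in the table of 30443 genes, and all 7 reached 1 FPKM (sequenced fragments scaled by transcript length and by the reads mapped in the library) in at least 1 library. Neurod2 was not analysed here. The identifiers were ENSRNOG00000005049 (Tbr1), ENSRNOG00000026055 (Neurod6), ENSRNOG00000001424 (Cux1), ENSRNOG00000001259 (Cux2), ENSRNOG00000009206 (Fezf2), ENSRNOG00000005776 (Bcl11b) and ENSRNOG00000015493 (Emx1).

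RNA was sequenced from 5 regions of 4 adult female wild-type Long-Evans rats aged about 6 to 8 months and weighing 275 to 350 g, which gave 20 libraries with each animal contributing every region. All animals, controls included, had a hemicontusion of 0.7 mm at C4 on the side of the preferred forelimb and, 2 weeks later, a dexamethasone injection and an array of electrodes placed in motor cortex on the other side. In 2 animals the array delivered 10 Hz pulses at 80% of the movement threshold for 5 h per day over 1 week, and the 2 controls carried the array and a sham connection without stimulation. Region 1 was a block of about 5 mm3 of white matter under the array, region 2 was its counterpart in the other hemisphere, and regions 3, 4 and 5 were spinal cord rostral to, at and caudal to the injury, with grey and white matter together. The study's methods state that the overlying cortex was removed from the white matter blocks. For stimulation, with 2 animals per group, the p-values rest on the spread between these animals. The comparisons of regions counted the 20 libraries as independent, although they came from 4 animals.

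The cerebral cortex is built in layers, and its glutamatergic neurons take on layer identities through these factors. Emx1 is a homeobox gene of the dorsal telencephalon, and Neurod2 and Neurod6 are basic helix-loop-helix factors of differentiating and mature excitatory neurons. Tbr1 is a T-box factor of layer 6 and subplate neurons, Fezf2 and Bcl11b (also called Ctip2) are zinc finger factors of subcerebral projection neurons in layer 5, and Cux1 and Cux2 are homeodomain factors used as markers of the upper layers. Several have roles elsewhere, since Bcl11b is also a factor of striatal medium spiny neurons, Cux1 is expressed in many tissues, and Cux2 acts in spinal cord neurons.

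Promoter sequences are shown for 4 members that represent the patterns described below, namely Tbr1 and Fezf2, Neurod6, and Cux2. Each runs 5′ to 3′ from 250 bases before to 50 bases after the annotated start, from RefSeq on build GRCr8, which is not the Rnor6 build used for the expression values. Tbr1 lies at chr3:66759553-66759852 on the + strand, Neurod6 at chr4:86180106-86180405 on the − strand, Fezf2 at chr15:15203943-15204242 on the + strand and Cux2 at chr12:40179032-40179331 on the + strand. Capitals mark matches on either strand to CAGATG, an E-box bound by NeuroD factors, to TAATTA, a homeodomain core, or to GGGCGG, a GC box.
Tbr1: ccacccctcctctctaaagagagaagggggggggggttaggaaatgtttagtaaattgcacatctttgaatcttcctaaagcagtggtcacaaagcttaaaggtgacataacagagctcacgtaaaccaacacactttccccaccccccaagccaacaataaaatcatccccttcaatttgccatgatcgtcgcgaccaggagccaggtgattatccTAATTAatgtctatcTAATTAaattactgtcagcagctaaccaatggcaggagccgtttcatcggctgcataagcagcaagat
Neurod6: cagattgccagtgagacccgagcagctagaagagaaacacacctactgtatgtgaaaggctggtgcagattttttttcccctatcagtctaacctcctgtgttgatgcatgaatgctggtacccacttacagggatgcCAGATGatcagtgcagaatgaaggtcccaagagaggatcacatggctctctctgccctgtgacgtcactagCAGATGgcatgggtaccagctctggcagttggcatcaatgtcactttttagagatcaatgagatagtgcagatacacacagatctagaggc
Fezf2: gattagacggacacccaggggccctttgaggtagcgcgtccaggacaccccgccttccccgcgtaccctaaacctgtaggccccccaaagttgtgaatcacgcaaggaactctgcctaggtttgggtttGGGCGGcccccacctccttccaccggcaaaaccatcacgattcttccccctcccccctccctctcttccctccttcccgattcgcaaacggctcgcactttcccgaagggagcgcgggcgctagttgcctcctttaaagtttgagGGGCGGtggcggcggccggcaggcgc
Cux2: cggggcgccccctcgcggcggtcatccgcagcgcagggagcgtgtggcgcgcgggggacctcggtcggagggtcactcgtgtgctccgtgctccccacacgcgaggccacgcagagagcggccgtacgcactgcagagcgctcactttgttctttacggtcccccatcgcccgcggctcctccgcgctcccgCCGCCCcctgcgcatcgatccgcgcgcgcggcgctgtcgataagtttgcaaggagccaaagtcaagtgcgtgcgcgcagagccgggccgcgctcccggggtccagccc
The table of promoters held 7 of the 8 listed genes. The GC content of the printed windows was 45.3% for Tbr1, 48.3% for Neurod6, 63.3% for Fezf2 and 73% for Cux2, against a median of 51.7% over 33469 promoters. The CG dinucleotide occurred 6 times in the Tbr1 window, 2 times in that of Neurod6, 23 times in that of Fezf2 and 46 times in that of Cux2, and the median over all promoters was 7. CAGATG was found 2 times in Neurod6 and in 16.6% of all promoters, TAATTA 2 times in Tbr1 and in 5.36%, and GGGCGG 2 times in Fezf2, 1 time in Cux2 and in 33.1%. The search covered both strands and 11 motifs. Of the other 8, AGGTGTGA contains AGGTGT, and the shares of all promoters holding each were 15.1% for CAGCTG, 8.2% for TAATTG, 8.06% for ATTGAT, 0.896% for ATCGAT, 1.1% for AGGTGTGA, 13.6% for AGGTGT, 14.2% for TATAAA and 37.5% for CCAAT. The Tbr1 window held CCAAT, the Neurod6 window held ATTGAT as well as AGGTGT, and the Cux2 window held ATCGAT. These matches describe the letters in each window only.

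Before the members, the tissue labels were compared with marker genes. The spinal cord Hox genes, 5 of which were listed, were at 0.1 FPKM in all 8 white matter libraries, where 0.1 is the floor to which the table raises lower values. The summed FPKM of 6 oligodendrocyte markers was 708 to 2943 in the white matter blocks and 7403 to 10779 in the cord, and all 6 were lower in the blocks. The summed FPKM of 5 excitatory forebrain neuron markers, among them Slc17a7, Camk2a and Nrgn, was 587 to 963 in the blocks and 16.9 to 35.5 in the cord. Thus markers of forebrain neurons were measured at high levels in the blocks labelled as white matter. Fewer cells of a type and less RNA per cell cannot be told apart in such bulk samples.

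The first comparison set the 8 white matter libraries against the 12 cord libraries. All 7 measured members passed the test (limma, adjusted p below 0.05), 6 of them higher in white matter and Cux1 lower. In the same fit, 25% of the 15210 genes tested were higher and 47.1% were lower. For the same 6 members every white matter value lay above every cord value, which held for 10.3% of genes. Tbr1, Fezf2 and Emx1 reached 1 FPKM in white matter only. Their direction was therefore tied to the filter of 1 FPKM and adds no separate support. The median log2 fold change was 3.94 over the members, which is the value of Neurod6, and −0.18 over all genes.

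**Figure D1:**
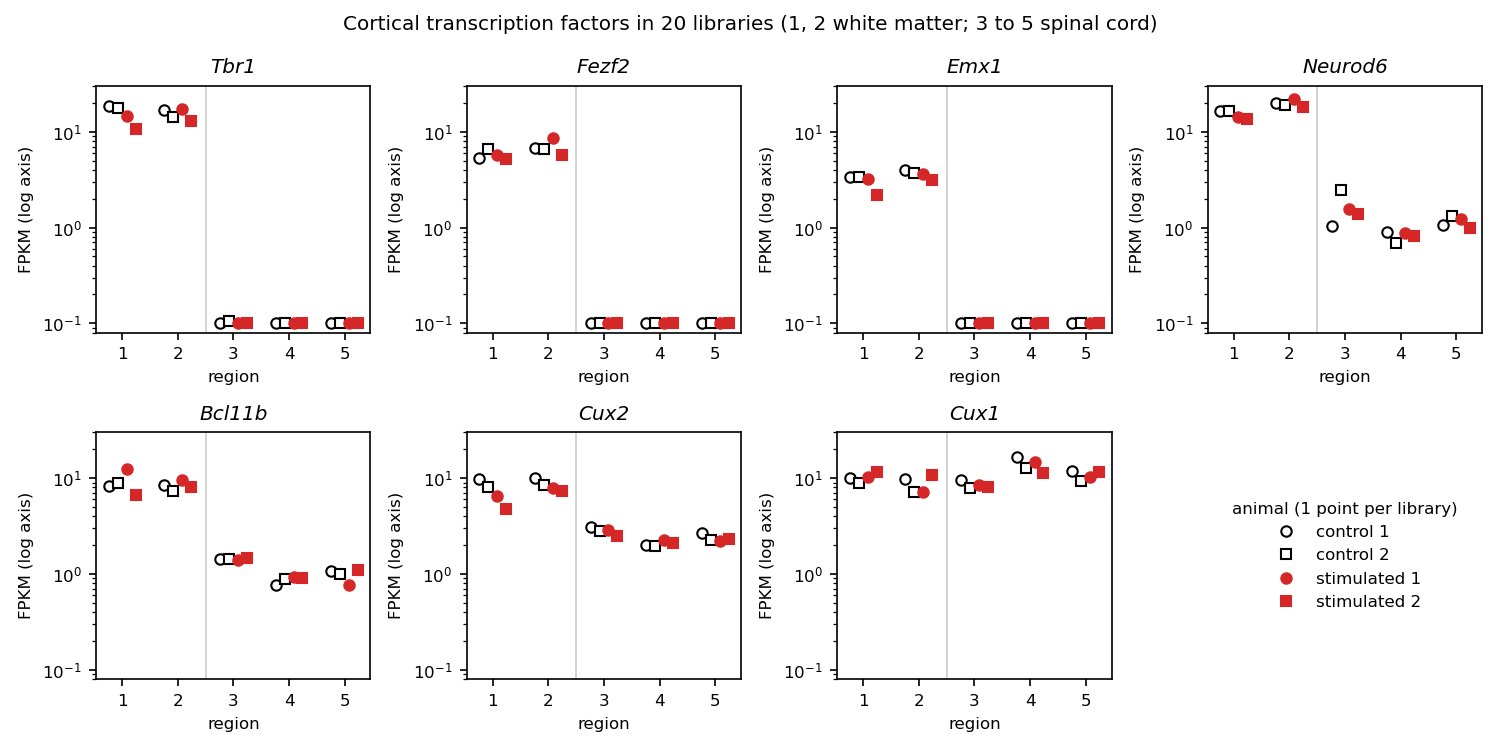
FPKM of the 7 measured members (log axis) by region, with 1 point per library, open for control and filled for stimulated animals. Tbr1, Fezf2 and Emx1 drop to the floor of 0.1 in the cord, Neurod6, Bcl11b and Cux2 fall to low levels there, and Cux1 lies between 7.18 and 16.5 FPKM in all 5 regions.

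Tbr1, the layer 6 factor, was measured in region 1 at 18.7 and 17.8 FPKM in the controls and at 14.5 and 10.7 FPKM in the stimulated animals. In region 2 it was 17.0 and 14.3 FPKM in the controls and 17.2 and 12.8 FPKM in the stimulated animals. In the cord it was listed at 0.1 FPKM in 11 of 12 libraries, and the remaining library, region 3 of control 2, was at 0.105 FPKM. Its mean in white matter was 15.4 ± 2.76 FPKM (SD, n = 8), at least 153-fold higher than the cord mean with libraries listed at 0.1 set to that floor.

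Fezf2, the factor that directs layer 5 neurons to subcerebral targets, was at 5.35 and 6.68 FPKM in the controls and 5.66 and 5.20 FPKM in the stimulated animals in region 1. In region 2 it was at 6.73 and 6.57 FPKM in the controls and 8.54 and 5.78 FPKM in the stimulated animals. All 12 cord libraries were at the floor. The mean of 6.31 ± 1.08 FPKM (SD, n = 8) in white matter was at least 63.1-fold higher than in the cord. Emx1, the dorsal telencephalic homeobox gene, had the lowest level of the members in white matter, 3.33 ± 0.542 FPKM (SD, n = 8), and was also at the floor in all 12 cord libraries. It was 3.41 and 3.33 FPKM in the controls and 3.22 and 2.18 FPKM in the stimulated animals in region 1, and 4.01 and 3.68 FPKM against 3.65 and 3.13 FPKM in region 2. This made it at least 33.2-fold higher in white matter. Fezf2 and Emx1 were thus at the floor in all 12 cord libraries and Tbr1 in 11 of 12. Their fitted differences depend on the floor, and lower true cord levels would make these differences larger.

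Neurod6, the excitatory neuron factor, was the highest member in white matter with a mean of 17.5 ± 2.91 FPKM (SD, n = 8). Unlike the former 3 genes it was measured in every cord library, from 0.693 to 2.44 FPKM with a median of 1.05 FPKM. The lowest white matter value, 13.5 FPKM, was above the highest cord value. Its log2 fold change was 3.94 ± 0.12 (SE, limma adjusted p = 6.11e-16). The highest cord value, 2.44 FPKM, was in region 3 of control 2. The same library had the highest cord level of Slc17a7, the vesicular glutamate transporter of cortical neurons, at 11.8 FPKM against 0.318 to 2.78 FPKM in the other 11 cord libraries. Whether the 2 values are linked was not tested.

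Bcl11b had a mean of 8.72 ± 1.71 FPKM (SD, n = 8) in white matter and 1.10 ± 0.268 FPKM (SD, n = 12) in the cord. In white matter it ranged from 6.60 to 12.3 FPKM and in the cord from 0.772 to 1.48 FPKM, so the tissues did not overlap. The log2 fold change was 3.01 ± 0.10 (SE, limma adjusted p = 1.96e-15). Cux2 differed less between the tissues, with 7.86 ± 1.70 FPKM (SD, n = 8) in white matter and 2.43 ± 0.371 FPKM (SD, n = 12) in the cord. Its ranges, 4.78 to 9.94 FPKM and 1.98 to 3.12 FPKM, did not overlap either, and the log2 fold change was 1.68 ± 0.10 (SE, limma adjusted p = 2.67e-11).

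Cux1 departed from its paralog Cux2. It was at 7.18 to 11.5 FPKM in white matter with a median of 9.88 FPKM, and at 7.99 to 16.5 FPKM in the cord with a median of 10.9 FPKM, so the tissues overlapped. Cux1 was lower in white matter, at −0.21 ± 0.09 on the log2 scale (SE, limma adjusted p = 0.0403), a value that differed by −0.03 from the median of all genes. The call was lost in 6 of 11 alternatives, among them quantile normalization (−0.12, adjusted p = 0.11) and leaving out stimulated animal 1 (−0.16, adjusted p = 0.217). The ratio of Cux1 to Cux2 was 0.858 to 2.40 in white matter and 2.83 to 8.24 in the cord, with no overlap.

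**Figure D2:**
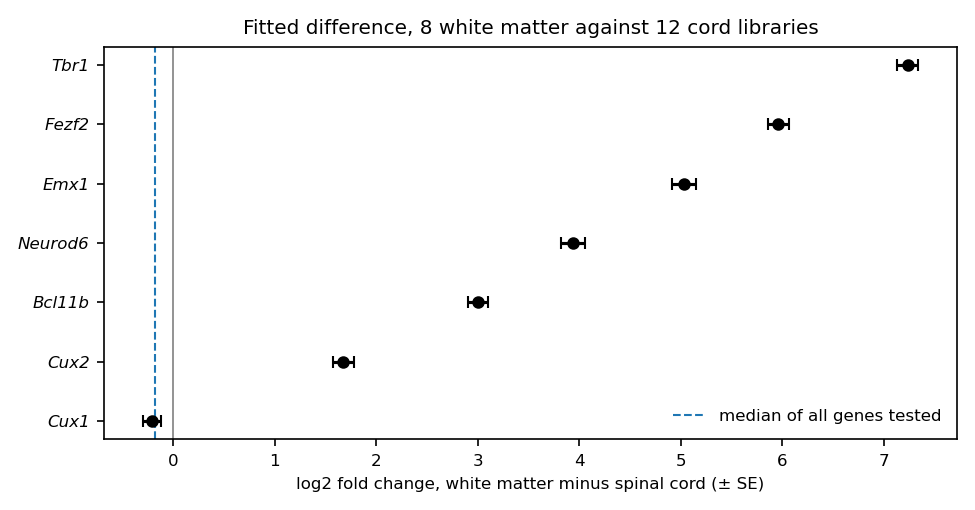
Fitted log2 fold change of each measured member between 8 white matter and 12 cord libraries, with bars for the SE and a dashed line at the median of all genes tested (−0.18). The values run from 7.24 for Tbr1 to −0.21 for Cux1, and those of Tbr1, Fezf2 and Emx1 are set by the floor in the cord.

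Genes used as markers of each cortical layer were measured in the blocks. Among 7 measured upper layer genes, 6 were higher in white matter than in cord and 0 were lower, with a median log2 fold change of 0.64 against −0.18 over all genes. Rorb, a nuclear receptor of layer 4, had mean levels of 11.3 FPKM in white matter and 7.04 FPKM in the cord, and Pou3f3, a POU factor of upper layer neurons, had 11.5 and 8.16 FPKM. Of 8 layer 5 genes, 5 were higher and 2 lower, with a median of 0.44. Crym, a thyroid hormone binding protein, had means of 51.4 and 3.58 FPKM, Pcp4, a calmodulin regulator, of 93.5 and 64.2 FPKM, and Etv1, an ETS factor, of 17.0 and 12.1 FPKM. The 2 lower genes were Rbp4, a retinol carrier, with means of 10.0 FPKM in white matter and 21.4 FPKM in the cord, and Tshz2, a zinc finger homeobox factor, with 7.74 and 13.4 FPKM. Both passed, with limma adjusted p = 2.13e-06 and 5.58e-07.

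Of 6 layer 6 genes tested, 5 were higher and 0 lower, with a median of 1.08. The remaining measured one, Ntsr1, did not reach 1 FPKM in any library and was not tested, with 0.1 to 0.181 FPKM in white matter and 0.498 to 0.738 FPKM in the cord. Rprm was at 8.05 and 1.51 FPKM, Sox5 at 7.04 and 2.48 FPKM and Tle4 at 11.7 and 9.80 FPKM. Of 5 genes of layer 6b, the thin layer that borders the white matter, 3 were higher and 1 lower, with a median of 1.37. Moxd1 had means of 9.26 and 1.51 FPKM and Cplx3, a complexin, of 2.57 and 0.186 FPKM, while Ctgf, at 6.51 and 6.12 FPKM, did not pass (adjusted p = 0.638). The lower gene was Nxph4, a neurexophilin, at 0.1 to 1.06 FPKM in white matter and 1.86 to 4.99 FPKM in the cord, without overlap, and it differed by −2.80 on the log2 scale (limma adjusted p = 6.36e-09). Among the progenitor factors, Eomes and Neurog1 were at 0.1 FPKM in all 20 libraries. Emx2, the paralog of Emx1, was at 1.50 FPKM in white matter and at the floor in all cord libraries, Neurod1 was at 1.37 and 0.148 FPKM, and Pax6 was at 1.61 and 2.08 FPKM.

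Within white matter, the mean levels per length ran from Neurod6 (17.5 FPKM) through Tbr1 (15.4), Cux1 (9.46), Bcl11b (8.72), Cux2 (7.86) and Fezf2 (6.31) to Emx1 (3.33 FPKM). Neighbours in this order were often exchanged between libraries. Neurod6 was above Tbr1 in 5 of 8 libraries, Cux1 above Bcl11b in 4, Bcl11b above Cux2 in 5 and Cux2 above Fezf2 in 6. Only Tbr1 above Cux1 (7 of 8) and Fezf2 above Emx1 (8 of 8) were nearly or fully constant.

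The balance of upper and deep layer factors was described by ratios within each library. Cux2 over Tbr1 was 0.445 to 0.526 in region 1 and 0.464 to 0.589 in region 2. Cux2 over Fezf2 was 0.920 to 1.83 in region 1 and 0.935 to 1.48 in region 2. Bcl11b over Fezf2, both layer 5 factors, was 1.27 to 2.18 in region 1 and 1.11 to 1.41 in region 2. Tbr1 over Fezf2 was 2.06 to 3.49 and 2.01 to 2.53 in these regions. Neurod6 over Tbr1 was 0.892 to 1.26 and 1.18 to 1.40. These ranges overlapped between the hemispheres. Within animals, Cux2 over Tbr1 and Neurod6 over Tbr1 were lower in region 1 than in region 2 in 4 of 4 animals. Cux2 over Fezf2 was lower in region 1 in 2 of 4 animals, and Bcl11b over Fezf2 and Tbr1 over Fezf2 in 1 of 4. The same count was not made for pairs of other genes.

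The 8 white matter libraries were not alike. The region 1 library of stimulated animal 2 had the lowest white matter level of 6 of the 7 members, all but Cux1, for which it had the highest. In that library the excitatory marker sum was 587 against 822 to 902 in the other region 1 libraries, and the microglia marker sum was 186 against 83.4 to 127. Its upper layer sum was the lowest in white matter at 34.7 FPKM (others 48.3 to 64.8), and its layer 6b sum was the highest at 31.5 FPKM (others 13.1 to 25.9). The region 2 library of the same animal had a microglia sum of 208 against 36.0 to 41.6 in the other 3. The part of these sums in the members' levels was not tested.

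The highest Bcl11b value, 12.3 FPKM, came from region 1 of stimulated animal 1. In that library the summed FPKM of 9 striatal medium spiny neuron markers was 205, against 52.0 to 67.0 in the other region 1 libraries and 65.8 to 83.3 in region 2. Rgs9, a striatal regulator of G protein signaling, was 11.0 FPKM there against 1.02 to 1.71 FPKM in the other region 1 libraries. Drd2, the dopamine D2 receptor, was 4.05 FPKM against 0.393 to 0.563 FPKM. Bcl11b is also a striatal factor, and the part of striatal RNA in its value was not tested.

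**Figure D3:**
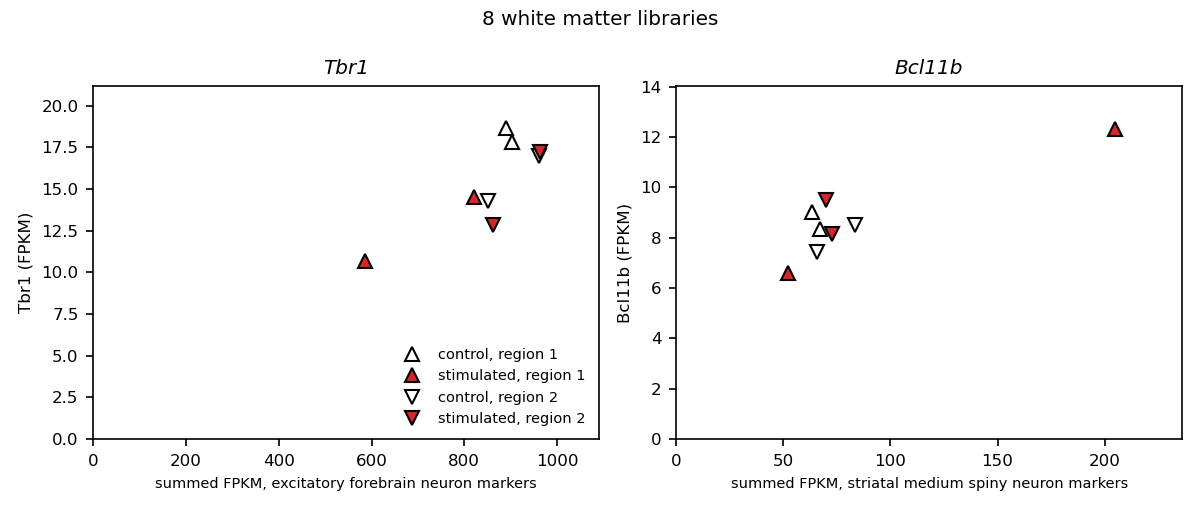
Left, Tbr1 against the summed FPKM of 5 excitatory forebrain neuron markers, and right, Bcl11b against the summed FPKM of 9 striatal markers, in the 8 white matter libraries, with all axes linear from 0. The library with the lowest excitatory sum (587) has the lowest Tbr1 (10.7 FPKM), and the library with the highest striatal sum (205) has the highest Bcl11b (12.3 FPKM).

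The second comparison set region 1, under the array, against region 2 in the other hemisphere, with 4 libraries each. No member passed the test (limma, 0 of 7), and 1 of 7 had an unadjusted p below 0.05, against 3827 of 15210 genes. Over all genes, 6.86% were higher and 1.76% lower in region 1. The median was −0.25 over the members and 0.06 over all genes, and 5 of 7 members were below 0. Scaling to the excitatory markers moved the median of all genes to 0.23 and Tbr1 above 0 (0.16), still under that median. Among the layer lists, Syt6 of layer 6 (0.84, adjusted p = 0.00831) and Ctgf of layer 6b (0.70, adjusted p = 0.0378) were higher in region 1. Both calls were lost without control 1, control 2 or stimulated animal 1, with adjusted p up to 0.136 for Syt6 and 0.318 for Ctgf without the last. The call of Ctgf was also lost with no filter on low values (adjusted p = 0.0569) and after scaling to the excitatory markers (adjusted p = 0.0872).

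Neurod6 was the member with the largest difference between the hemispheres. It was 16.6, 16.4, 14.1 and 13.5 FPKM in region 1 and 20.1, 19.0, 22.1 and 17.9 FPKM in region 2, in the order control 1, control 2, stimulated 1 and stimulated 2. The groups did not overlap, which was the case with a lower region 1 for 3.16% of genes, and region 1 was lower in 4 of 4 animals. The log2 fold change of −0.38 ± 0.18 (SE) did not pass (limma adjusted p = 0.197). Emx1 (−0.27, adjusted p = 0.399) and Cux2 (−0.25, adjusted p = 0.345) were also lower in region 1 in 4 of 4 animals, and Cux1 (0.23, adjusted p = 0.308) was higher in 4 of 4. Across animals Cux2 ranged from −0.637 to −0.018 and Cux1 from 0.025 to 0.506 on the log2 scale. The share of all genes with the same sign in 4 of 4 animals was not counted. Fezf2 was −0.26, Bcl11b 0.08 and Tbr1 −0.01 on the log2 scale.

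Glial markers were compared between the same regions. Of 6 oligodendrocyte markers 5 were higher in region 1, with sums of 1512 to 2943 against 708 to 1391 in region 2, and 0 to 1 of them passed without control 1, control 2 or stimulated animal 1. Of 4 astrocyte markers 2 were higher, with sums of 571 to 1130 against 209 to 929, and 0 of 4 microglia markers passed, with sums of 83.4 to 186 against 36.0 to 208. The excitatory sum was 587 to 902 in region 1 and 851 to 963 in region 2. Their part in the values of the members was not tested.

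The third comparison was among the cord regions, where 4 members were measurable. Neurod6, Bcl11b and Cux1 passed an F test across regions 3, 4 and 5 (limma), as did 20.6% of all genes. Neurod6 and Bcl11b had their lowest mean at the injury, and Cux1 had its highest mean there. Between regions 4 and 5, however, 0 of 7 members passed, while 1216 of 15210 genes did. The limma adjusted p in that contrast was 0.098 for Neurod6, 0.509 for Bcl11b and 0.095 for Cux1. All 5 pan-neuronal markers and 4 of 5 excitatory markers passed the same F test. The pan-neuronal sums were 807 to 1031 in region 3, 552 to 686 in region 4 and 830 to 946 in region 5. The 5 markers did not share 1 pattern. Tubb3 was 147 to 175 FPKM in region 3, 126 to 162 FPKM in region 4 and 222 to 254 FPKM in region 5. Stmn2 was also highest in region 5, at 77.5 to 92.0 FPKM against 61.8 to 74.1 FPKM in region 3. The excitatory sums were 22.8 to 35.5 in region 3 and 16.9 to 20.8 in region 4. Their part in the values of the members was not tested.

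**Figure D4:**
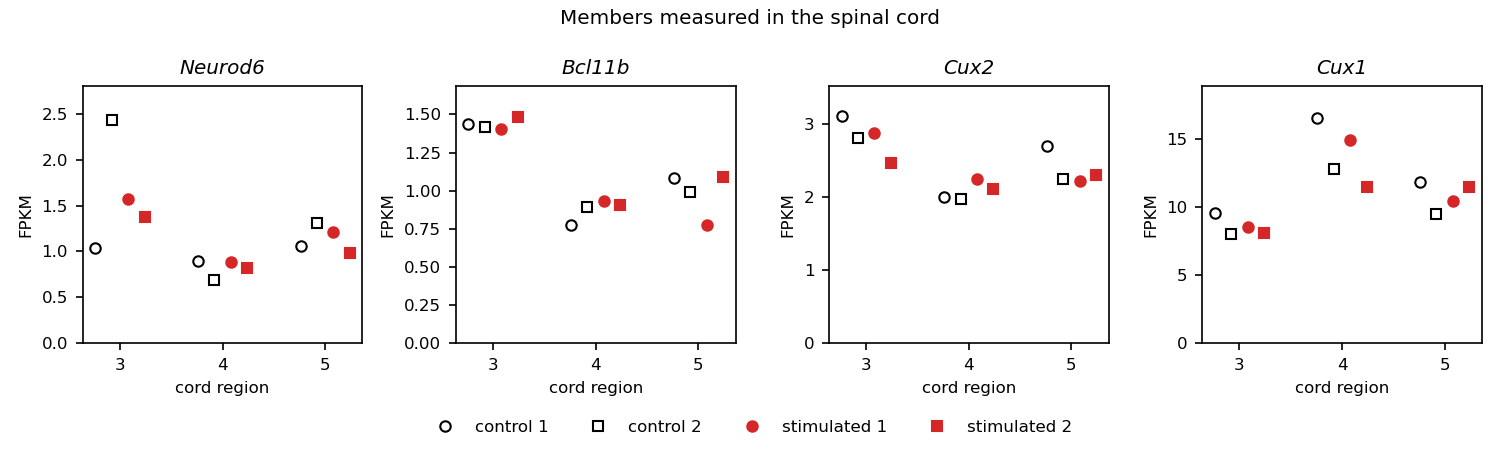
FPKM (linear axes from 0) of the 4 members measured in the cord, by region, with 1 point per library. Neurod6 and Bcl11b are lower in region 4 than in region 3, Cux1 is higher in region 4 than in region 3 without overlap, and Cux2 did not pass the test.

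Neurod6 was 1.03, 2.44, 1.57 and 1.38 FPKM in region 3, 0.890, 0.693, 0.882 and 0.817 FPKM in region 4 and 1.06, 1.31, 1.21 and 0.980 FPKM in region 5, in the same order of animals. Every region 4 value was below every value of the other cord regions. The share of all genes that separate without overlap among the cord regions was not counted, here or for the members below. The log2 fold change between regions 4 and 3 was −0.90 ± 0.18 (SE, limma adjusted p = 0.00243), and 12.8% of genes were lower in this contrast. The F test gave an adjusted p of 0.00716, which became 0.0869 without control 2, the animal with the high region 3 value.

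Bcl11b was 1.44, 1.42, 1.40 and 1.48 FPKM in region 3, 0.774, 0.892, 0.930 and 0.907 FPKM in region 4 and 1.09, 0.989, 0.772 and 1.09 FPKM in region 5. Region 3 was above both other regions in every library. The log2 fold change was −0.72 ± 0.15 (SE, limma adjusted p = 0.00321) between regions 4 and 3. It was −0.56 ± 0.15 (SE, limma adjusted p = 0.0423) between regions 5 and 3, a contrast in which 1.55% of genes were lower and the median of all genes was 0.11.

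Cux1 was 9.56, 7.99, 8.52 and 8.05 FPKM in region 3, 16.5, 12.8, 14.9 and 11.4 FPKM in region 4 and 11.8, 9.44, 10.4 and 11.5 FPKM in region 5. Region 4 was above region 3 in every library, by 0.69 ± 0.14 on the log2 scale (SE, limma adjusted p = 0.00212), and 6.78% of genes were higher in this contrast. In the same libraries the microglia marker sum was 142 to 259 in region 4 and 74.2 to 110 in region 3. The astrocyte marker sum was 1810 to 2584 in region 4 and 1136 to 1563 in region 3. However, 0 of 4 microglia and 0 of 4 astrocyte markers passed the F test across the cord regions. The astrocyte marker Gfap was 1456 to 2159 FPKM in region 4 and 823 to 1225 FPKM in region 3. Slc1a3, another of these markers, was 41.0 to 46.0 FPKM in region 4 and 44.2 to 55.1 FPKM in region 3. The part of the glial sums in the Cux1 values was not tested. Cux2 was 2.48 to 3.12 FPKM in region 3, 1.98 to 2.26 FPKM in region 4 and 2.22 to 2.71 FPKM in region 5, and did not pass (F test, limma adjusted p = 0.115).

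The calls changed when an animal was left out. Without control 2, 0 members passed the F test, and 1 passed without control 1 or without stimulated animal 1, while 4 passed without stimulated animal 2. The adjusted p of Cux1 became 0.066, 0.062 and 0.0578 without control 1, control 2 and stimulated animal 1. That of Bcl11b became 0.0941 without control 1 and 0.0918 without control 2, and that of Neurod6 0.0573 without stimulated animal 1. The fitted differences between regions 4 and 3 kept their signs in all alternatives.

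The last comparison asked whether the members differed between stimulated and control animals within a region. No member passed in any region (limma, 0 of 7), as did 0% of all genes in regions 1, 2, 3 and 4 and 0.0197% in region 5. At an unadjusted p below 0.05 there were 2 of 7 members and 828 of 15210 genes in region 1. In regions 2, 3, 4 and 5 there were 0 members and 215, 522, 341 and 546 genes. Fezf2 and Emx1 were at the floor in every cord library, so they could not differ there.

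In region 1, under the array, Tbr1, Neurod6, Cux2 and Emx1 were lower in both stimulated animals than in both controls, and Cux1 was higher. Thus 4 of 7 members were lower and 1 higher without overlap, where 19.5% and 21.2% of all genes were. Scaling to the excitatory markers moved all genes up alike, to a median of 0.34, and with it Neurod6, Emx1 and Fezf2 to 0.11, 0.028 and 0.23 (log2), above 0 and under that median. Cux2 was 9.82 and 8.08 FPKM in the controls and 6.47 and 4.78 FPKM in the stimulated animals, which is −0.68 ± 0.22 (SE) on the log2 scale (limma adjusted p = 0.712). The value for Tbr1 was −0.55 ± 0.19 (SE) on the log2 scale (limma adjusted p = 0.712), and these were the 2 members with an unadjusted p below 0.05.

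Neurod6 was at −0.26 ± 0.10, Emx1 at −0.34 ± 0.25, Fezf2 at −0.14 ± 0.17 and Cux1 at 0.19 ± 0.13 (SE) on the log2 scale. Bcl11b was 8.33 and 9.00 FPKM in the controls and 12.3 and 6.60 FPKM in the stimulated animals. Its log2 fold change of 0.06 ± 0.35 (SE) became −0.39 without stimulated animal 1 and 0.51 without stimulated animal 2. The excitatory marker sum was 890 to 902 in the controls and 587 to 822 in the stimulated animals, and all 5 of these markers were below 0 without passing. The microglia sum was 83.4 to 95.1 in the controls and 127 to 186 in the stimulated animals. The astrocyte sum was 571 to 614 in the controls and 959 to 1130 in the stimulated animals. Of the microglia and astrocyte markers, 4 in each list, 0 passed. The astrocyte marker Aldh1l1 overlapped between the groups, at 4.79 and 4.60 FPKM in the controls and 5.82 and 3.37 FPKM in the stimulated animals. The part of these marker sums in the members' values was not tested.

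**Figure D5:**
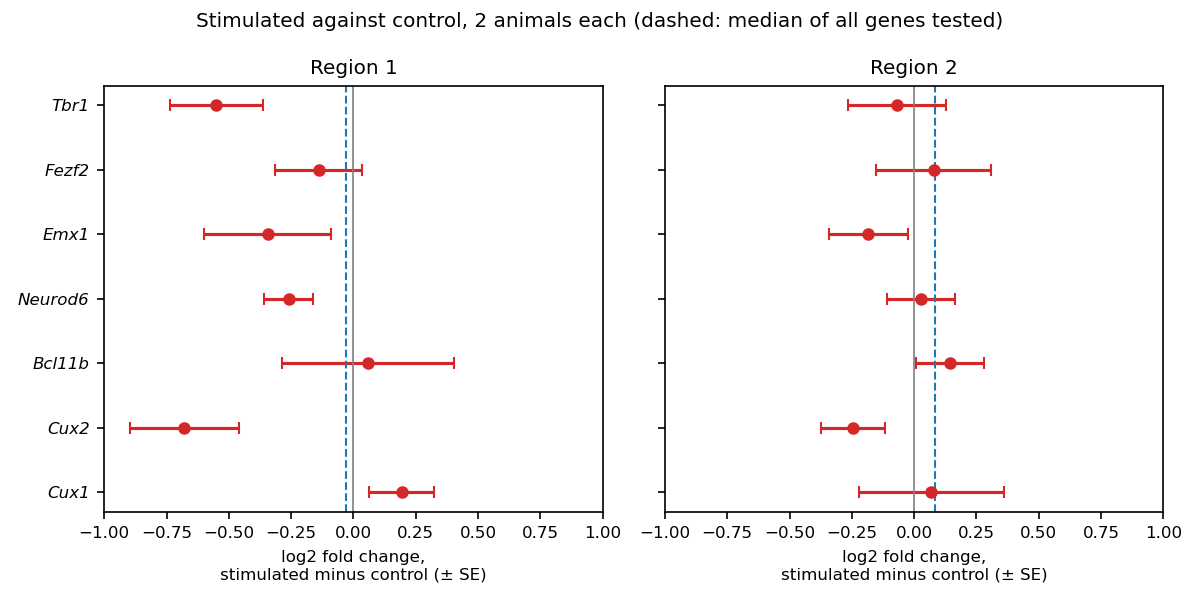
Log2 fold change between 2 stimulated and 2 control animals in regions 1 and 2 for the 7 measured members, with bars for the SE and a dashed line at the median of all genes tested. In region 1 the values run from −0.68 for Cux2 to 0.19 for Cux1, and no member passed in either region.

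In region 2, Cux2 and Emx1 were lower in both stimulated animals than in both controls, 2 of 7 members, against 6.77% of genes. Cux2 was 9.94 and 8.41 FPKM against 7.98 and 7.44 FPKM (−0.25 ± 0.13 SE, limma adjusted p = 0.949). Emx1 differed by −0.18 ± 0.16 on the log2 scale (SE, limma adjusted p = 0.949). The difference of the effects between regions 1 and 2 was tested on the differences within each animal, and 0 members passed (0% of all genes). The median of this difference over all genes was −0.13. The smallest p was that of Tbr1, with −0.48 ± 0.13 (SE, limma adjusted p = 0.884), and Cux2 was at −0.43 ± 0.17 (SE, adjusted p = 0.884).

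In the cord, the 4 members measured there overlapped between stimulated and control animals in regions 3 and 5, where 29.9% and 24.6% of genes did not overlap. Fezf2 and Emx1 in both regions and Tbr1 in region 5 were at 0.1 FPKM in every library and could not separate. In region 4, Cux2 and Bcl11b were higher in both stimulated animals, by 0.13 ± 0.16 and 0.14 ± 0.15 (log2, SE), and such an order was found for 12.5% of genes. Neither passed (limma adjusted p = 1).

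The genes with the most similar profile over the 20 libraries were found by the mean absolute difference of centred log2 FPKM. For Tbr1 they included Ddn (0.28), which encodes the dendritic protein dendrin, and for Fezf2 LOC102546421 (0.24). For Emx1 they were LOC100910518 (0.06) and LOC102549320 (0.11). The profiles span both tissues, so the gap between white matter and cord is part of each difference. Within the cord, members at the floor had little or no spread to compare. Arpp21 (0.15) and Rasgrp1 (0.20) were nearest to Neurod6, Fbxl16 (0.12) and Akap5 (0.16) to Bcl11b, and Arhgap32 (0.10) and LOC100362814 (0.10) to Cux2. Cux1 stood with other neighbours, Ncoa3 (0.10), a nuclear receptor coactivator, and Atm (0.10), a DNA damage kinase, both at similar levels in white matter and cord.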

How the data were processed

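RNA from 5 regions of 4 rats was depleted of ribosomal RNA and sequenced by the study. Per the study's methods, reads were aligned to Rnor6 with TopHat2 2.1.0 and expression was estimated with Cufflinks 2.2.1. The authors deposited FPKM values per gene, with lower values raised to 0.1. FPKM carries no read numbers, so depth per gene is unknown and only the spread between libraries gives precision. The annotation version and the use of strand are not given in the sources used here, so overlapping and antisense genes are uncertain.

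The deposited FPKM values were log2-transformed, and the 15210 genes with at least 1 FPKM in any of the 20 libraries were tested, since 39.7% of all values stood at 0.1. Members were the rows with a listed symbol, and no member symbol was repeated. Regions were compared with limma 3.58.1 (R 4.3.3, lmFit and eBayes with trend) in a model of all 20 libraries with region means. That model held no term for the animal. Stimulation was tested in the 4 libraries of each region, and the difference of effects on differences within animals. P-values were adjusted by Benjamini-Hochberg over all genes, with 0.05 as threshold. Tests of single contrasts were two-sided, and the fits were tested on simulated data. Other steps used Python 3.11.15, pandas 2.3.3, numpy 2.4.6 and matplotlib 3.10.9.

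Members and 14 lists of 84 marker genes were chosen with earlier results of these data known. Of the list genes, 81 were measured, and Rasgrf2, Insm1 and Pecam1 were not analysed here. The named genes were all members, up to 3 genes per list with the highest mean FPKM in white matter, and the 2 genes with the profile most like each member. Some genes that this rule selects are not reported here. Syt6, Ntsr1, Rbp4, Tshz2, Nxph4, Rgs9, Drd2, Eomes and Neurog1 were named after their values were seen.

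Groups come from the sample labels. The 5 libraries of a group and number are from 1 animal, and their deviations from region means correlated at 0.65 between regions 1 and 2, 0.23 between regions 3 and 4, −0.00262 between regions 4 and 5 and 0.08 between regions 3 and 5. Alternatives were another pseudocount of 1, no filter, a filter in 2 libraries, quantile and upper-quartile scaling, scaling to the excitatory markers, eBayes without a trend, a model of all libraries, replicate blocks, and leaving out each animal.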

Additional observations from a re-analysis of the deposited data

Results flagged for a closer look

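Emx1 was at 2.18 FPKM in region 1 of stimulated animal 2, while the other 3 libraries of region 1 were at 3.22 to 3.41 FPKM. The gap to its neighbour was 0.847 of the range of the 4 libraries, above the critical value of Dixon's test. It was the only flag among 26 groups of 4 libraries, and chance flags about 1 in 20 such groups.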

How the results depend on the processing

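The number of members called was 0 in all alternatives run for region 1 against region 2, stimulation in each region and the difference of effects, and 6 to 7 for white matter against cord. In the cord 3 members passed the F test, and leaving out an animal gave 0 to 4. For white matter against cord 6 members stayed above 0 and past the threshold in all 11 alternatives, and Cux1 lost its call in 6 of them. With the animal as replicate block, 7, 0 and 3 members passed in the 3 comparisons of regions, as without it.

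For stimulation, the replicate numbers 1 and 2 name different animals, and deviations of libraries with the same number correlated at −0.20, −0.20, −0.11, 0.38 and −0.24 in regions 1 to 5. The replicate block called 0 members in each region and raised the count of genes in region 5 from 3 to 443. The crossed replicate block, chosen after seeing the data, called 0 genes in regions 1, 2, 3 and 5 and 118 in region 4.

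Scaling to the excitatory markers shifted all genes alike, to medians of 0.34 for stimulation in region 1 and 0.23 for region 1 against region 2. By this shift the sign changed for stimulation in region 1 in Neurod6 (0.11), Fezf2 (0.23) and Emx1 (0.028), and for region 1 against region 2 in Tbr1 (0.16), and all 4 values stayed under those medians. Quantile normalization turned Bcl11b to −0.00093 in region 1 against region 2. Leaving out an animal gave, for region 1 against region 2, −0.123 to 0.0708 for Tbr1 and −0.0172 to 0.209 for Bcl11b, and for stimulation in region 1 −0.300 to 0.0196 for Fezf2 and −0.392 to 0.510 for Bcl11b. The cause was not tested. Over all genes, region 1 against region 2 called 1310 genes, 26 without stimulated animal 1 and 3587 without stimulated animal 2. The F test in the cord called 3135 genes and 397 to 4340 with an animal left out. With an animal left out, 1 group holds 1 animal, which is assumed to vary like the 2 of the other group. Without stimulated animal 1, stimulation called 230 genes in region 1, 566 in region 2 and 154 in region 5, and the difference of effects 116. Stimulation in region 4 called 213 genes without control 2 and 128 without control 1, and in region 5 407 without stimulated animal 2.

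With 2 animals per group and no read numbers, differences of the size seen here between stimulated and control animals could not be separated from the spread between animals.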
